A study of Mus musculus with 4 samples.

Results

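Peaks of the transcription factor NKX2.2 had 1489 summits inside long genes in alphaTC6, an established line of mouse pancreatic alpha cells, which make glucagon. These are the summits of the deposited list that lay over 1 kb from the boundary of every annotated gene and inside a protein-coding gene, where the longest such gene spanned 100 kb or more. The summit marks where a peak is highest in chromatin immunoprecipitation and sequencing (ChIP-seq), in which DNA bound by a factor is pulled down with an antibody and sequenced. Members were found by position alone, and they made up 20.2% of the 7380 summits on the 19 autosomes and the X chromosome (95% Wilson interval 19.3% to 21.1%). The whole list had 7384 summits.

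The series has 2 samples of anti-NKX2.2 ChIP and 2 of input DNA, all labelled wild type (WT), with no treatment named. AlphaTC6 is a single established line, so it stands for the cultured cell and not for the alpha cells of an islet. The list gives 1 value per peak and none per sample, so the depth of the libraries and the spread between replicates are unknown. All values describe this list, and intervals cover counting error only. The deposited value, called the score, is the −log10 of the q-value that the peak caller gave each peak against input. A higher score means stronger statistical evidence of enrichment over input, and it is not a measure of how much protein is bound.

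NKX2.2 is a homeodomain transcription factor required for the formation of islet endocrine cells, and it can repress or activate its targets. The NK2 class of homeodomains, to which it belongs, recognises DNA around an AAGTG core. Introns make up most of the length of long genes and commonly hold enhancers and alternative promoters. Long genes include many that encode ion channels, adhesion molecules and guidance receptors, classes shared by neurons and endocrine cells, as well as transcriptional regulators.

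Some members lay at start sites inside the gene, and there the sequence under the summit can be shown. The promoter table of RefSeq (build GRCm38.p6) lists 1149 start sites that themselves lie over 1 kb from all gene boundaries inside 769 long genes. Of the 1420 members on chromosomes that the table covers, 44 lay within 500 bp of a listed start, or 3.10%. For this count and for the densities, listed starts within 1 kb of a gene boundary were also used. The sequence within 500 bp of a listed start held 40.5 members per Mb (95% exact Poisson interval 29.4 to 54.4), against 2.40 per Mb (2.28 to 2.53) in the rest of the long genes, a ratio of 16.9. Seen from the starts, 49 of 1149 had a summit within 500 bp, or 4.26%. Listed starts were thus densely occupied per base but accounted for few of the members. The table holds 17274 of 21631 protein-coding genes, so a member at a start it does not list counts as away from one. Their scores were not high. The median was 8.56 near a start and 14.3 away from one, with a range from 3.20 to 110 near starts.

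In 25 cases the summit fell within the 250 bases before a listed start. The stretches below are the 6 of these with the highest scores, shown because only there could the DNA under a member be read from the tables used here. Each is given 5′ to 3′ on the strand of its gene, with up to 60 bases on either side of the summit and none beyond the start site. Capitals mark the NK2 core (AAGTG, or CACTT on the other strand) and the GC box (GGGCGG or CCGCCC), the site of Sp and KLF family zinc finger proteins.
Fer (score 110, chr17:63863854-63863974, plus strand): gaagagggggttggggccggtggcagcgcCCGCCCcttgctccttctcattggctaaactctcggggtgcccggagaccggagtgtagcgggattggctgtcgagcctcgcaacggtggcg
Zmym4 (score 75.3, chr4:126968283-126968403, minus strand): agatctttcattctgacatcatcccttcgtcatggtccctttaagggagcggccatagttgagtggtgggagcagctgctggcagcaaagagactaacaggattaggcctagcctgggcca
Esyt2 (score 56.6, chr12:116281137-116281221, plus strand): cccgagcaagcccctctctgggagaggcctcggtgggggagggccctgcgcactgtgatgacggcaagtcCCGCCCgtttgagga
Hdac4 (score 29.6, chr1:92180520-92180591, minus strand): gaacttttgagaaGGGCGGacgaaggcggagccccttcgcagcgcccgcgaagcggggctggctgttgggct
Elavl2 (score 23.2, chr4:91376532-91376652, minus strand): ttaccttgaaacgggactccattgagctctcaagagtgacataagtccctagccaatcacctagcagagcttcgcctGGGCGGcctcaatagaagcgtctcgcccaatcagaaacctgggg
Rph3al (score 21.1, chr11:75926026-75926141, minus strand): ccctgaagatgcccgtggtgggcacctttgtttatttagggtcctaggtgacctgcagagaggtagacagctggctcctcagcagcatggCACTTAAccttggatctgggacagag

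The first 3 of these genes encode a tyrosine kinase (Fer), a zinc finger protein (Zmym4) and a tether between endoplasmic reticulum and plasma membrane (Esyt2). Hdac4 encodes a class II histone deacetylase, Elavl2 a neuronal RNA-binding protein, and Rph3al an effector of Rab GTPases in regulated exocytosis. The summit at Fer lay 67 bases before its start site, that at Zmym4 116 and that at Esyt2 25. At Hdac4 the distance was 239 bases, at Elavl2 96 and at Rph3al 195. Of the 6 stretches, that of Rph3al holds an NK2 core, within the longer word CACTTAA, and those of Fer, Esyt2, Hdac4 and Elavl2 each hold a GC box.

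Over the full 250 bases, the 25 windows with a member were compared with the windows of all 32585 listed starts, on both strands. The AAGTG core was in 10 of the 25, or 40.0%, and in 40.7% of all windows. Its longer form TTAAGTG, which contains the core, was in 2 windows with a member (8%) and in 2.11% of all. The GC box was in 14 (56.0%) and in 32.9% of all. GTTGCCAT (RFX), TGANTCA (AP-1) and TGCTGAC (MAF) were each in 1 window, 4%, against 1.13%, 6.78% and 3.84% of all. CAGATG (a NEUROD E-box) was in 2, or 8%, against 14.4%. CCACTTAA (which overlaps TTAAGTG on the other strand), GGGTGTGG (KLF), TGTTTAC (FOXA) and TGACGTCA (CRE) were in none of the 25, and in 0.562%, 3.20%, 3.18% and 1.56% of all windows. The windows with a member were also richer in CpG, with a median of 13.0 CpG against 6 and a median GC content of 60% against 52.4%. GC content and the GC box thus moved together, and the part of one in the other was not tested. With 25 windows these shares are descriptions of few sequences.

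The density of members depended on how long the gene was. Genes of 100 to 200 kb held 3.43 summits per Mb of sequence that could hold a member (95% exact Poisson interval 3.16 to 3.70). Genes of 200 to 500 kb held 2.77 (2.55 to 2.99), and genes of 500 kb or more held 1.27 (1.11 to 1.44). The 3 intervals do not overlap. The longest genes were therefore occupied per base about as sparsely as sequence between genes, which held 1.40 summits per Mb (1.34 to 1.46). Between genes, here and below, means outside protein-coding genes, so it takes in the inside of genes of other kinds. Shorter genes had 4.28 per Mb under 20 kb (3.78 to 4.83), 3.24 at 20 to 50 kb (2.95 to 3.55) and 3.33 at 50 to 100 kb (3.06 to 3.62). The intervals on either side of 100 kb, the length limit of the rule, overlap. Over all long genes the density was 2.50 (2.38 to 2.63), against 3.46 (3.27 to 3.65) over all shorter genes. Long genes offered 595 Mb of such sequence, 24.3% of all sequence over 1 kb from a boundary. The 20.2% share of placed summits also counts summits within 1 kb of a boundary, so it cannot be set beside the 24.3%. Over 1 kb from a boundary lay the 1489 members, 1277 summits in shorter genes and 2078 between genes.

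Without chromosomes 9, 14 and X, where members were sparsest per Mb, the same order was seen. The densities were then 3.81 (3.51 to 4.12), 3.12 (2.87 to 3.38) and 1.47 (1.29 to 1.68) in the 3 classes of long genes. This comparison was added after the data had been seen.

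**Figure D1:**
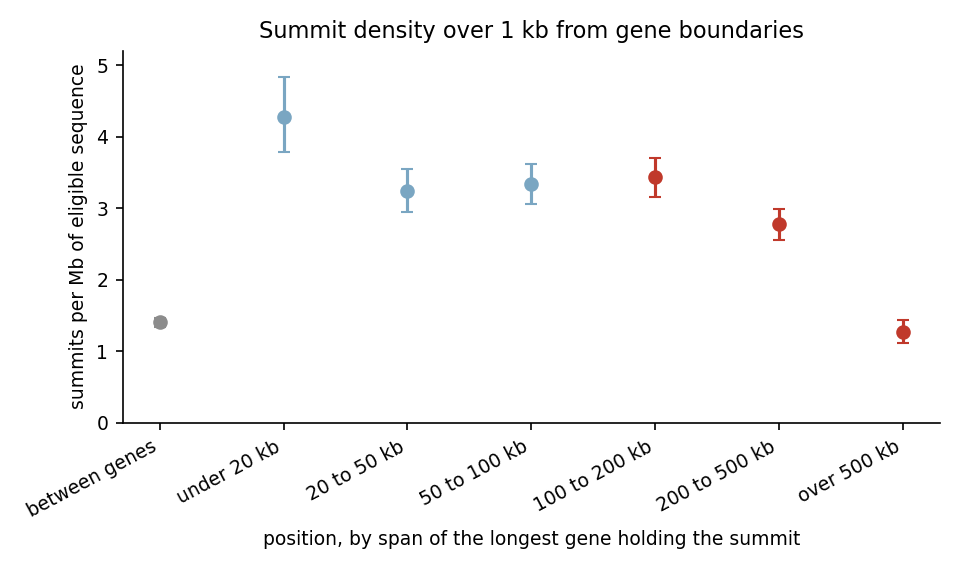
Summits per Mb of sequence lying over 1 kb from gene boundaries (vertical axis), between genes and by the span of the longest protein-coding gene holding the summit (horizontal axis); bars are 95% exact Poisson intervals. The density is 3.43 per Mb in genes of 100 to 200 kb and 1.27 in genes of 500 kb or more, close to the 1.40 between genes. Between genes means outside protein-coding genes.

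Per gene the order was the opposite. Of 2427 long genes, 804 held at least 1 member, or 33.1%. The share was 27.7% in genes of 100 to 200 kb, 40.1% at 200 to 500 kb and 44.1% from 500 kb. A single member was found in 462 genes, 57.5% of the 804, while 342 genes held 2 or more. These 342 genes accounted for 1027 members, 69.0% of them. The 41 genes with 5 or more held 263 members. The number of members and the span of the gene were only loosely related across the 2427 genes (Spearman's rho 0.17; genes are not independent replicates).

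Members were spread along the whole gene. The strand was known for 1864 long genes, with 1140 members, and in these 51.8% of members lay nearer the 5′ end than the 3′ end. When genes were divided into 10 equal parts from the 5′ end, the density ran from 2.05 per Mb in part 7 (1.65 to 2.50) to 2.95 in part 4 (2.47 to 3.48). All 10 intervals share the values between 2.47 and 2.50. In absolute distance there was a rise close to the 5′ end. Between 1 and 5 kb from it lay 45 members, 6.04 per Mb (4.40 to 8.08), against 3.33 per Mb (2.26 to 4.72) from 5 to 10 kb. Unlike those of the 10 parts, densities by distance include bases near boundaries of other genes, where no member could lie. Of these 45 members, 16 were within 500 bp of a listed start. The density was 2.94 per Mb (2.60 to 3.31) from 50 to 100 kb and 1.21 (0.948 to 1.52) past 500 kb, a distance that only the longest genes have. The median member lay 99.6 kb from the 5′ end and 25.9 kb from the nearest boundary of any gene.

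**Figure D2:**
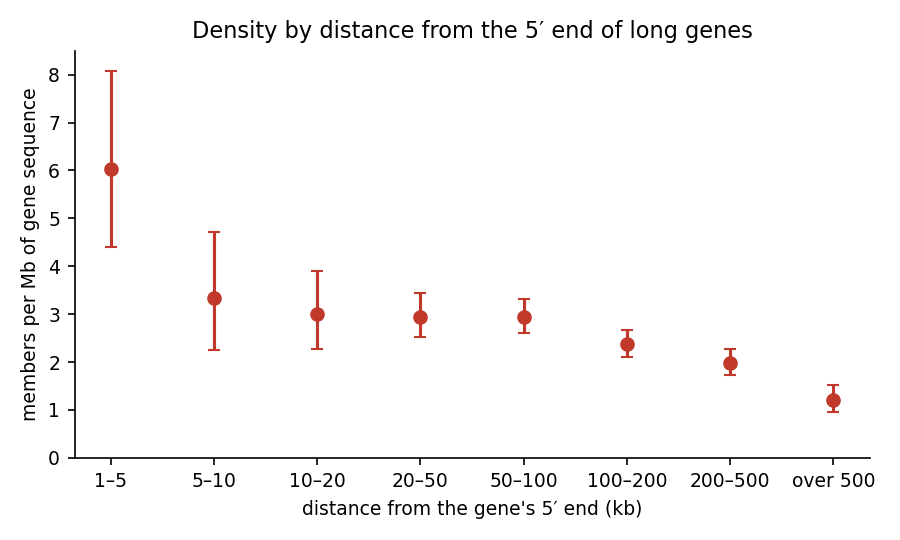
Members per Mb of gene sequence (vertical axis) by distance from the 5′ end of the gene in kb (horizontal axis), for 1140 members in long genes of known strand; bars are 95% exact Poisson intervals. The density is 6.04 between 1 and 5 kb, between 2.94 and 3.33 from 5 to 100 kb and 1.21 past 500 kb.

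Few of the long genes also carried a summit at their own promoter end. Of the 1864 genes of known strand, 10.5% had a summit within 1 kb of the 5′ end. It was 13.7% of the 630 genes with a member (95% Wilson interval 11.2% to 16.6%) and 8.91% of the 1234 without (7.45% to 10.6%). The gap was found in each length class, at 14.5% against 10.7% for 100 to 200 kb, 13.1% against 6.85% for 200 to 500 kb and 11.7% against 1.96% from 500 kb. The intervals overlap in the first class (11.1% to 18.8% and 8.72% to 13.0%) and in the second (9.33% to 18.1% and 4.60% to 10.1%), and also in the longest (6.27% to 20.7% and 0.539% to 6.87%). At the 3′ end a summit was found in 6 of the 630 genes and in 5 of the 1234. In the 86 genes that had both a member and a summit at the 5′ end, the best member outscored the 5′ summit in 61, or 70.9%. The median of the best member was 23.4 there and that of the best 5′ summit 12.9, though a gene can hold several members and the best of them was taken.

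The scores of the members ran from 2.07 to 1214, with a median of 14.1 and quartiles of 7.96 and 27.1. Summits inside shorter genes had a median of 13.9 (quartiles 8.22 and 29.2), those between genes 14.9 (8.37 and 30) and those within 1 kb of a gene boundary 12.7 (7.64 and 24.9). Scores of 100 or more belonged to 72 members, 4.84% (95% Wilson interval 3.86% to 6.05%), against 5.08% of all placed summits. They belonged to 6.19% of summits in shorter genes (4.99% to 7.64%), 6.69% between genes (5.69% to 7.85%) and 3.35% at boundaries (2.72% to 4.13%). At 50 or more the share of members lay below that of summits between genes, with 11.3% (9.84% to 13.1%) against 14.7% (13.3% to 16.3%), and the intervals do not overlap. The share was 13.0% in shorter genes (11.3% to 15%) and 9.54% at boundaries (8.46% to 10.7%). Gene length made little difference to the median, at 13.5, 14.4 and 14.9 in the 3 length classes.

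**Figure D3:**
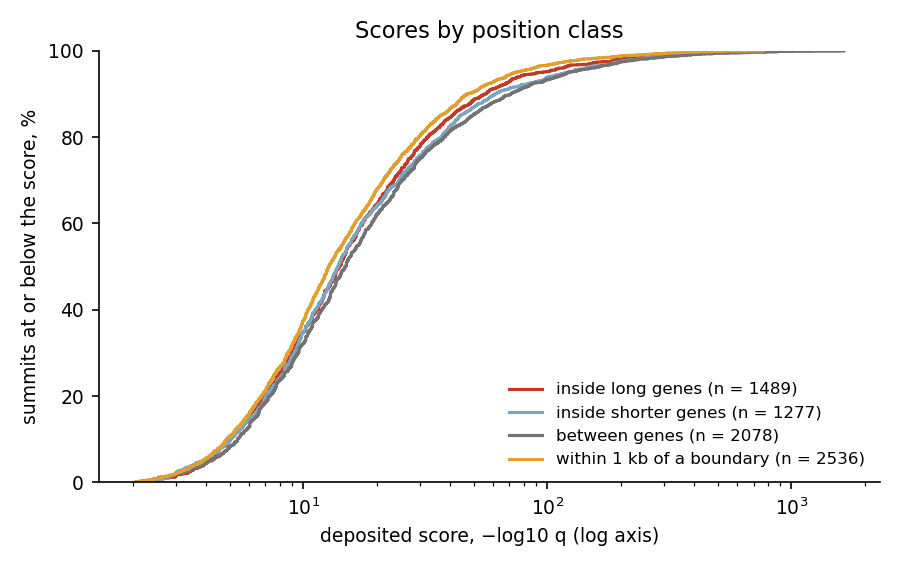
Share of summits at or below a given score (vertical axis, %) against the deposited score on a log axis (horizontal axis), 1 line per position class. The line of the 1489 members lies between that of boundary summits (median 12.7) and that of summits between genes (median 14.9). Between genes means outside protein-coding genes.

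The strongest members were found in genes of varied function. The highest score, 1214, was at position 87277636 of chromosome 6 in Antxr1, which encodes an anthrax toxin receptor that binds extracellular matrix, and it ranked 3 of all placed summits. Another member of Antxr1 lay 6.86 kb away with a score of 14.7. The next was in Tnr (score 1015, position 159729467 of chromosome 1), the gene of the matrix glycoprotein tenascin-R, midway along the gene at 50.4% of its length. No other summit lay within 171 kb of it. Reep1, which encodes a protein that shapes the endoplasmic reticulum, had a member scoring 869.7 at position 71728550 of chromosome 6, and 21.1 kb from the 5′ end. Sgpp2, the gene of a sphingosine-1-phosphate phosphatase, followed with 619.7 at position 78322671 of chromosome 1.

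A further 11 complete the 15 highest. R3hdm2 (score 615) and Plb1 (598), a phospholipase gene, came before Cacna1c (537), which encodes the pore of an L-type calcium channel. The summit in Cacna1c also lay inside a further protein-coding gene. Pcgf5 (478), a Polycomb group gene, Fam171a1 (465) and the forkhead factor gene Foxp1 (426) came next. They were followed by the bromodomain gene Baz2b (351), by Rptor (339.5), which encodes the scaffold of the mTORC1 kinase complex, and by Dennd1a (336), whose product activates Rab GTPases. Dpp10 (329), an auxiliary subunit gene of Kv4 potassium channels, and the nuclease gene Snd1 (312) close the group. Of the 15 genes, 6 were under 200 kb. The nearest other summit was under 10 kb away at Antxr1, Reep1 (4.83 kb) and Cacna1c (4.47 kb), and between 29.2 and 301 kb away at the other 12. Another summit was thus within 10 kb of 3 of 15, against 19.6% of all members.

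Spacing was a little wider than in shorter genes. Another summit lay within 10 kb of 292 members, 19.6% (95% Wilson interval 17.7% to 21.7%), against 26.5% of summits in shorter genes (24.1% to 29.0%) and 23.2% between genes (21.4% to 25.1%). For summits within 1 kb of a gene boundary the share was 17.6% (16.2% to 19.2%). The median distance to the nearest summit was 46.0 kb for members and 27.3 kb in shorter genes. It was 42.0 kb between genes and 45.2 kb at boundaries, both closer to that of members. Shorter genes also had more summits per Mb, and the part of that density in the spacing was not tested. Among neighbouring members of the same gene, the median gap was 31.8 kb, and 143 of 685 gaps were at most 10 kb.

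The genes with the most members differed in how their sites were laid out. Wdr25, a WD repeat gene on chromosome 12 that spans 134 kb, held 11, all within a stretch of 63.1 kb. Its scores were low, with a median of 6.18 and 1 member above 11, at position 108953872 with 26.9. Ralgapa2, which encodes a catalytic subunit of the GTPase-activating complex for Ral, held 10 members in 272 kb, with scores from 4.28 to 36.0. All 10 lay at least 84.7 kb from its 5′ end, where a further summit had a score of 3.87. Dpp6, a second Kv4 auxiliary subunit gene, held 9, with 8 of them from 669 to 868 kb into a gene of 910.1 kb. The 2 strongest, at positions 27519796 and 27660138 of chromosome 5, scored 74.1 and 55.2, and the other 7 at most 10.2.

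The genes with 8 members included stronger sites. In Cacna1c all 8 were nearer the 5′ end than the 3′ end, from 17.3 to 276 kb in, and the strongest was the one closest to the 5′ end. That member also lay inside a further protein-coding gene, 4.82 kb from the nearest gene boundary. After its score of 537, the next were 49.9, 45.8 and 31.2. Pde3a, whose enzyme hydrolyses cyclic AMP, had scores from 9.79 to 122, the highest median of the 6 genes with 8 members except that of Cacna1c (24.8 and 30.1). In Nav1, which encodes a microtubule-associated navigator protein, the members ran from 17.8 to 225 kb in, with the top score of 124 at the far end. Ptprt, a receptor tyrosine phosphatase gene of 1139 kb, had scores from 5.05 to 154 spread over 1095 kb, with a median gap of 129 kb. Rere, which encodes a nuclear receptor corepressor, reached 32.6, and the oxidoreductase gene Wwox reached 26.0.

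The remaining genes of this group had 7 members each. They include the Notch coactivator gene Maml3 (top score 89.7), the cyclic AMP phosphodiesterase gene Pde4d (78.8), Btbd9 (30.1), the basic helix-loop-helix factor gene Tcf4 (23.5) and Mical3 (20.6), whose product oxidises actin. In Pde4d the members lay from 522 to 1169 kb into the gene. In Btbd9 all 7 had like scores, from 14.2 to 30.1. The strongest member of Mical3 lay 18 bases before a listed start. Per Mb of eligible sequence, Wdr25 led with 84.9 members. It was followed among genes with 3 or more members by the kinase gene Stk32a (57.8, with 6 members), the adaptor gene Shb (56.8, with 6), the endothelin-converting enzyme gene Ece1 (53.8, with 5) and 3110082I17Rik (48.4, with 4). The 4 members of 3110082I17Rik scored between 25.3 and 124, and those of Ece1 between 4.21 and 89.7.

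**Figure D4:**
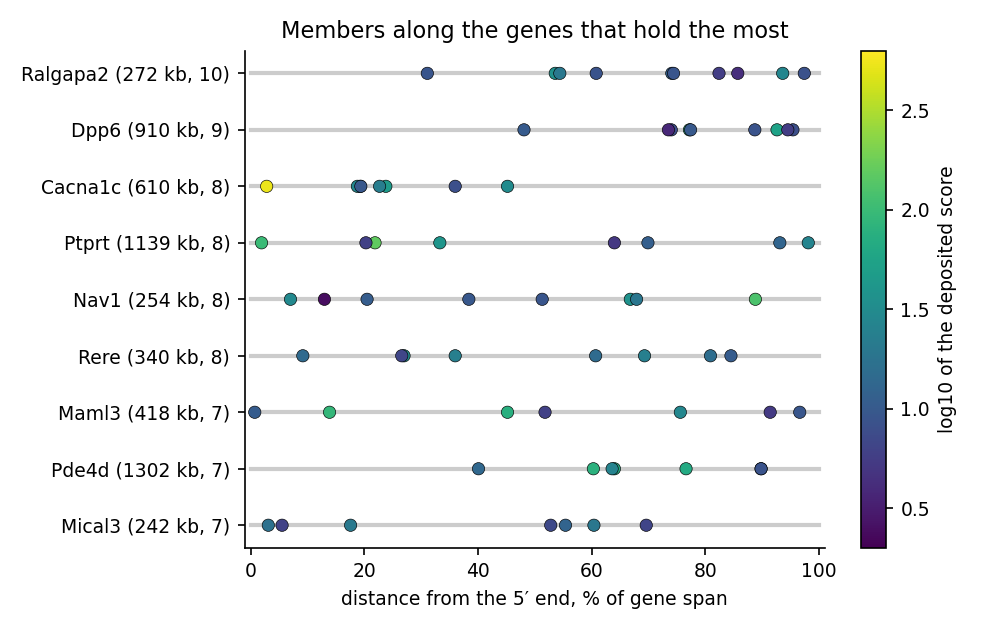
Members along the 9 genes of known strand that hold the most members, as distance from the 5′ end in percent of the gene span (horizontal axis); each row is a gene with its span and number of members, and colour gives log10 of the score. Members of Cacna1c lie in the 5′ part of the gene, those of Ralgapa2, Dpp6 and Pde4d mostly in the 3′ part, and those of Ptprt over its whole length.

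Gene lists were then read against the share of all long genes with a member, 33.1%, and against the shares by length given above. Lists were not tested, and several are made of genes much longer than the rest. The densities of the lists were not matched for length. Over all genes, density ran from 3.43 per Mb at 100 to 200 kb to 1.27 from 500 kb. Voltage-gated calcium channel genes, which encode the pore and its auxiliary subunits, had a member in 8 of 13 long genes, 61.5% (95% Wilson interval 35.5% to 82.3%). By length class, from the shortest, these were 3 of 5, 4 of 6 and 1 of 2. Beside Cacna1c these include Cacna2d2 (2 members, top score 226), Cacna1e (2, 49.5), Cacna1i (2, 31.9) and Cacna2d1 (2, 18.0). Cacna1d, Cacna1b, Cacnb2, Cacna2d3 and Cacng2 had none. Cyclic nucleotide phosphodiesterase genes had a member in 7 of 12, or 58.3% (32.0% to 80.7%), with 0 of 3, 4 of 6 and 3 of 3 by length class. After Pde3a and Pde4d came Pde10a (5 members, top score 35.4), Pde4b (3, 12.2) and Pde1c (2, 53.3). Pde1a, Pde3b, Pde5a, Pde8a and Pde8b had none.

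Regulators of chromatin and transcription formed the next lists. Chromatin regulators and corepressors had a member in 23 of 42 long genes, 54.8% (39.9% to 68.8%), and 5.64 members per Mb. They had a member in 13 of 28 genes of 100 to 200 kb, where the background is 27.7%, in 9 of 12 of 200 to 500 kb, where it is 40.1%, and in 1 of 2 from 500 kb, where it is 44.1%. Named here are Rere, described above, Auts2 (5 members, top score 40.8), Hdac4 (3, 151) and Jarid2 (3, 45.0), a subunit gene of Polycomb repressive complexes. Transcription factor genes had one in 35 of 80, 43.8% (33.4% to 54.7%), with a density of 3.32 per Mb. By length class these were 12 of 34, 16 of 34 and 7 of 12. Next to Maml3 and Tcf4 were the zinc finger gene Zbtb20 (4 members, top score 91.7), Sox5 (4, 34) and Gli2 (4, 30), an effector of Hedgehog signalling.

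Signalling, potassium channel and guidance genes came next. Small GTPase regulators had a member in 25 of 60 (41.7%, 30.1% to 54.3%), with 10 of 25, 10 of 27 and 5 of 8 in the 3 length classes. Among them were Ralgapa2, Trio (6 members, top score 24.2), Arhgap26 (5, 102), Sipa1l3 (4, 32.4) and Agap1 (4, 31.6). Genes of cyclic AMP and calcium second messengers had one in 18 of 40 (45.0%, 30.7% to 60.2%), with 5 of 16, 10 of 20 and 3 of 4. They include Rapgef1 (4, top score 15.2), Camk4 (3, 49.0), Prkce (3, 27.9), Akap6 (2, 53.0) and the gene of the inositol trisphosphate receptor, Itpr1 (2, 16.9). Potassium channel genes had one in 11 of 23 (47.8%, 29.2% to 67.0%), with 3 of 5, 7 of 14 and 1 of 4. Kcnip4 and Kcnip1, which encode Kv channel interacting proteins, had 3 and 2 members with top scores of 184 and 71.8. Kcnd3, a Kv4 pore gene, had 2 with a top score of 109. Kcnmb2 (2, 23.5) and Kcnn3 (2, 18.0), genes of calcium-activated channels, followed. Axon guidance genes had one in 15 of 34 (44.1%, 28.9% to 60.5%), with 7 of 15, 4 of 12 and 4 of 7. They were led by the netrin gene Ntn4 (4, 20.7) and the ephrin gene Efna5 (3, 48.0), with Robo2 (2, 29.3), Sema6a (2, 24.1) and Plxna4 (2, 17.0) next. Per Mb, small GTPase regulators held 3.76 members and second messenger genes 2.57, against 2.50 in all long genes. Potassium channel and axon guidance genes lay below that, at 2.00 and 1.90. The potassium channel list does not hold Dpp6 (9 members) and Dpp10 (5), which were counted with the islet endocrine genes.

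Adhesion and glutamate receptor genes held few members per Mb. Synaptic and immunoglobulin-type adhesion genes, with a median span of 809 kb, had a member in 15 of 41 (36.6%, 23.6% to 51.9%), at 0.837 per Mb. By length class these were 0 of 2, 3 of 10 and 12 of 29, so that in the 2 longer classes the share was below the 40.1% and 44.1% of all genes of that length. Tenm4 had 6 (top score 14.1), Nrxn3 3 (31.1), Tenm2 3 (26.0), Negr1 3 (23.7) and Cntnap2 2 (155). Glutamate receptor genes had one in 5 of 18 (27.8%, 12.5% to 50.9%), at 0.891 per Mb, with 1 of 2, 1 of 10 and 3 of 6 by length class. They were Grik3 (3, top score 74.8), Grm7 (2, 80.7), Grid1 (1, 21.1), Grik2 (1, 16.7) and Gria2 (1, 8.63). Receptor tyrosine phosphatase genes, with a median span of 212 kb, had one in 6 of 15 (40.0%, 19.8% to 64.3%), at 2.42 per Mb. All long genes held 2.50 per Mb. However, 5 of the 6 genes with a member span 500 kb or more, where all genes held 1.27 per Mb. None of 3 genes of 200 to 500 kb held one, against 1 of 6 shorter and 5 of 6 longer genes. After Ptprt came Ptprn2 (3, 159), which encodes an autoantigen of secretory granules, Ptprd (3, 10.2), Ptprk (2, 26.8) and Ptprg (1, 21.9). Common fragile site genes had one in 6 of 15 (40.0%, 19.8% to 64.3%), at 0.703 per Mb. All 15 span 500 kb or more, where 44.1% of genes held a member and the density was 1.27 per Mb. Wwox held 8 of their 16 members, and Immp2l (2, 168), Lrp1b (1, 15) and Magi2 (1, 11.2) held fewer.

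Islet endocrine genes stood near the background. A member was found in 11 of 30 long genes of that list, 36.7% (21.9% to 54.5%), at 2.62 per Mb, with 3 of 10, 4 of 11 and 4 of 9 by length class. Dpp6 and Dpp10 held 9 and 5 of its 31 members. Next to Dpp6 and Dpp10 (5 members, top score 329) were Tmem163 (4, 186), whose product transports zinc, Ptprn2 and the active zone gene Rims2 (2, 45.3). The insulin receptor gene Insr, the proprotein convertase gene Pcsk2, Tcf7l2, Glis3 and Rfx3 had none. Skeletal and heart muscle genes, a list of another tissue, had one in 4 of 15 (26.7%, 10.9% to 52.0%), at 0.808 per Mb, with 1 of 4, 1 of 6 and 2 of 5. They were Cdh13 (4 members, top score 30.8), Myom1 (1, 27.7), Ryr2 (1, 15) and Neb (1, 7.80), with none in Ttn or Dmd. A gene without a member can still have a summit within 1 kb of a gene boundary. Of the 1234 such genes of known strand, 110 had one at the 5′ end. At unknown depth, the lack of a called peak also does not show that the factor was absent.

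**Figure D5:**
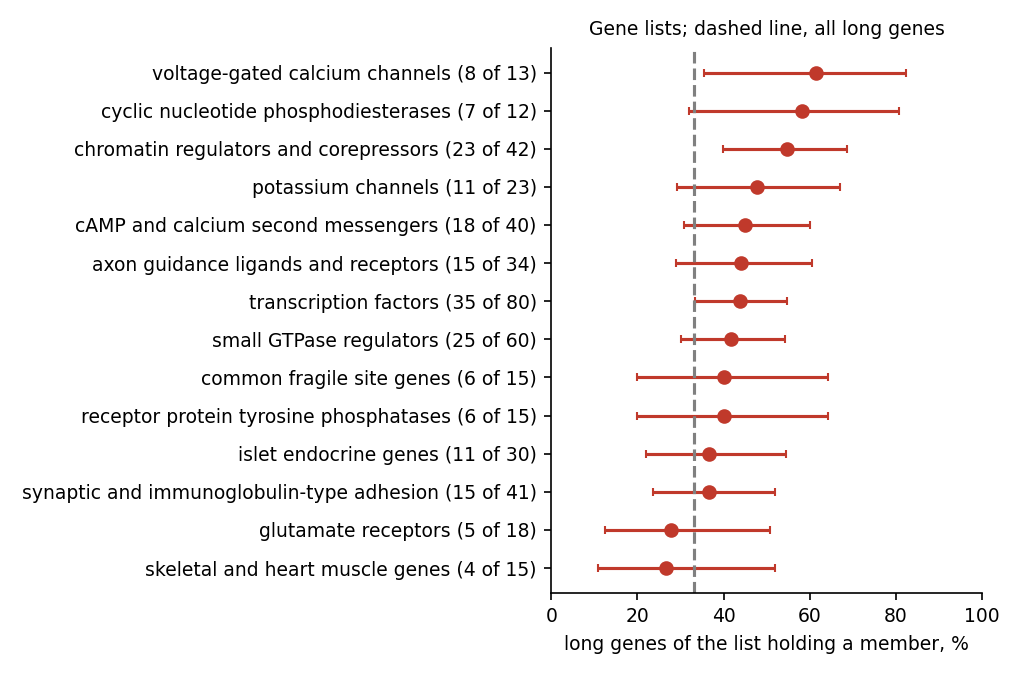
Share of the long genes of each list that hold a member (horizontal axis, %), with 95% Wilson intervals; numbers in brackets are genes with a member of all long genes in the list, and the dashed line is the 33.1% of all long genes. Calcium channels, phosphodiesterases and chromatin regulators lie highest and muscle genes lowest.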

How the data were processed

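NKX2.2 ChIP and input DNA were sequenced from alphaTC6 cells, with 2 samples each, grouped by title. The authors deposited 1 list of peak summits. Per the submitters' processing notes the tools were FastQC, Bowtie2 and MACS2 and the build was mm10, the primary assembly of GRCm38; versions, duplicate handling and pooling of replicates are not given in the sources used here. The deposited score is taken as the −log10 q-value of MACS2, since the smallest value, 2.03, lies just above the 2 of a q-value of 0.01.

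Positions were counted from 1 and compared with all RefSeq genes of GRCm38.p6. Eligible sequence is every base, between the outermost genes of a chromosome, that meets the position rule, with gaps in the assembly included. Strand and start sites came from the RefSeq promoter table, which holds 17274 of 21631 protein-coding genes on these chromosomes and none on chromosome 18. No genome sequence was used here, so exons, introns and the planned motif shares at all summits were not analysed, and motifs were searched only in the windows before listed starts. Minus-strand windows were checked to be written along the gene: 1138 of 1138 overlapping pairs matched.

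The summits and the 14 gene lists were chosen with earlier results of these data known. Genes named are those with the most members (10, ties included), those of the 15 highest scores, up to 5 per list by number of members and score, the 5 densest with 3 or more members and the 10 longest with none; list genes named as holding none, the sequences shown and the second member of Antxr1 were chosen after their values were seen. Some genes that the rule names are not reported here. Intervals on shares are Wilson's, those on densities exact Poisson. Alternatives changed the score minimum, the margin, the boundaries, merging, the length limit and the neighbour distance. The position classes were tested on simulated positions. Computation ran on scipy 1.17.1 and numpy 2.4.6 under Python 3.11.15, with pandas 2.3.3 for tables and matplotlib 3.10.9 for plots.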

Additional observations from a re-analysis of the deposited data

How the results depend on the processing

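No paired analysis was possible because each summit carries a single score with no replicate named, and no replicate could be left out for the same reason. Motif shares at other distances from the summit were not run without a genome sequence. With a score of at least 5, density fell to 2.24 per Mb, the share of long genes with a member to 31.0% and the median score rose to 15.6. With at least 10 there were 969 members, 1.63 per Mb, 25.9% of long genes, 12.2% of members with a neighbour and a median of 21.9, as weak peaks drop out by construction; 30% of second messenger genes and 26.7% of small GTPase regulators then held a member. Over 5 kb from boundaries the share of placed summits was 17.3%, the density 2.36 and the share of genes 29.6%. With genes of 200 kb or more there were 855 members, 11.6% of placed summits, 2.08 per Mb, in 41.0% of genes, 16.5% had a neighbour, and 71.4% of chromatin regulators held one. Without chromosomes 9, 14 and X the density was 2.83. A neighbour lay within 1 kb of 2.96% and within 50 kb of 52.5%. The other 20 of 39 values, and 81 of 84 list shares, stayed within their 95% intervals (counts within 1.5 times). The intervals of the lists are wide, so this does not show that the shares are stable. With a score of at least 10, chromatin regulators fell from 54.8% to 40.5% and calcium channels from 61.5% to 46.2%, both within their intervals. Merging moved none of the values past these limits.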

Other observations

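Members were unevenly shared among the chromosomes. On 17 chromosomes the long genes held between 2.03 members per Mb (chromosome 16) and 3.88 (chromosome 5). Chromosome 9 held 1.07 (95% exact Poisson interval 0.735 to 1.52), chromosome 14 0.577 (0.336 to 0.924) and the X chromosome 0.104 (0.0215 to 0.305). On the X chromosome 3 of 114 long genes held a member, on chromosome 14 12 of 95 and on chromosome 9 19 of 128. On chromosome 6, 60 of 138 did. The median score on the sparse chromosomes was 16.6 (9), 15 (14) and 11.6 (X), within the range of 10.4 to 20.6 of the others. Without chromosomes 9, 14 and X, density in shorter genes also rose, so the sparseness was not particular to long genes. Under 20 kb it was then 4.71 per Mb against 4.28. It was 3.53 against 3.24 at 20 to 50 kb and 3.69 against 3.33 at 50 to 100 kb.

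Of 59 genes of 1000 kb or more, 30 held no member. Among the 10 longest of these were Dmd (2390.4 kb), Lsamp (2197 kb), Macrod2 (1998 kb), Fhit (1612 kb), Ctnna3 (1574 kb), Rbfox1 (1528 kb), Gpc5 (1433 kb), Il1rapl1 (1375 kb) and Naaladl2 (1346 kb). Dmd and Il1rapl1 are on the X chromosome and Fhit and Gpc5 on chromosome 14. Ctnna3, which encodes an alpha-catenin, had a summit of score 9.24 at its 5′ end.

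At the length limit, the members in the shortest genes were in Smarcal1 (100.1 kb, score 4.28), Specc1l (100.4 kb, 17.9) and Rnf130 (100.4 kb, 10.2). Just below it were summits in Ube4b (99.75 kb, 7.79), Cdc73 (99.62 kb, 11.6) and Snx30 (99.61 kb, 51.4). A further protein-coding gene also covered 12 of the members, among them the strongest of Cacna1c (537) and of Immp2l (168). In addition, 87 members, 5.84%, also lay inside a gene of another kind.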
